A study of Mus musculus with 10 samples.

Results

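Connexin genes, which encode the proteins of gap junctions, were followed in hypothyroid and euthyroid cochlear tissue of the mouse. They were picked by symbol, 7 of the 18725 genes in the table: Gja1, Gja4, Gja5, Gjb2, Gjb6, Gjc1 and Gjc3. The 10 libraries were made from C57BL/6J mice at postnatal day 10. The 5 hypothyroid libraries came from pups whose mothers were given the antithyroid agents methimazole (at 0.05%) and sodium perchlorate monohydrate (at 1.0%), with sucrose (at 5.0%), by way of the water bottle, starting at embryonic day 17 and continuing through nursing up to day 10. The 5 euthyroid libraries came from pups of vehicle-treated mothers. Outer sulcus, epithelium that lines the outer wall of the cochlear duct, was dissected with the spiral ligament behind it, so each library mixes epithelium with connective tissue and vessels. The extraction text of the labels names femoral cartilage at another age, but the inner ear gene Otor stood at 6060 CPM (counts scaled to library size) in hypothyroid and 5479 CPM in euthyroid libraries. The fibrocyte genes Coch and Otos were also present, at 261 and 56.1 CPM in hypothyroid and 2868 and 3906 CPM in euthyroid libraries. Cartilage and bone markers were present too. The sum of 9 chondrocyte markers was 13480 to 14425 CPM in hypothyroid and 33081 to 38285 CPM in euthyroid libraries.

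Connexin subunits assemble in a ring as a hemichannel, and hemichannels of adjoining cells dock into a channel that passes ions and small molecules. In the cochlea, the connexins encoded by Gjb2 (connexin 26) and Gjb6 (connexin 30) couple the epithelial cells into one network and the fibrocytes and strial cells of the lateral wall into another. Both networks are thought to return potassium to the endolymph, and mutations in Gjb2 are a common cause of inherited human deafness. Thyroid hormone is needed for the cochlea to mature before hearing starts.

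The hypothyroid libraries held 19298145 to 19407592 estimated counts and the euthyroid ones 19781921 to 20063961. The edgeR quasi-likelihood test was run on 14862 genes that passed a count filter, and p-values were adjusted over all of them by the Benjamini-Hochberg method. Of the 7 connexins, 6 passed the filter, and Gja5 did not. Levels compared between groups are CPM after TMM scaling, and levels compared between genes are TPM (transcript share scaled by gene length), which are per length. Fold changes are hypothyroid minus euthyroid on the log2 scale. The labels do not say that the libraries came from separate animals, so p-values measure only how these libraries vary, and that variation may be technical. In bulk tissue, fewer cells of a type and less RNA per cell cannot be told apart.

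The connexins divided by direction. Gjb2, Gjb6, Gja1 and Gja4 fell in the hypothyroid tissue, while Gjc1 and Gjc3 rose. All 6 tested members passed an adjusted p of 0.05, 4 lower and 2 higher, where 71.8% of all tested genes passed in either direction, 34.1% lower and 37.7% higher. The median log2 fold change of the 6 was -0.73, against 0.04 over all tested genes, and the single values ran from -1.11 to 0.97. CPM ranges of the groups did not overlap for 5 of the 6, where 57.9% of all tested genes did not overlap. A call alone therefore says little about these genes, and their sizes and per-library values carry the description.

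**Figure D1:**
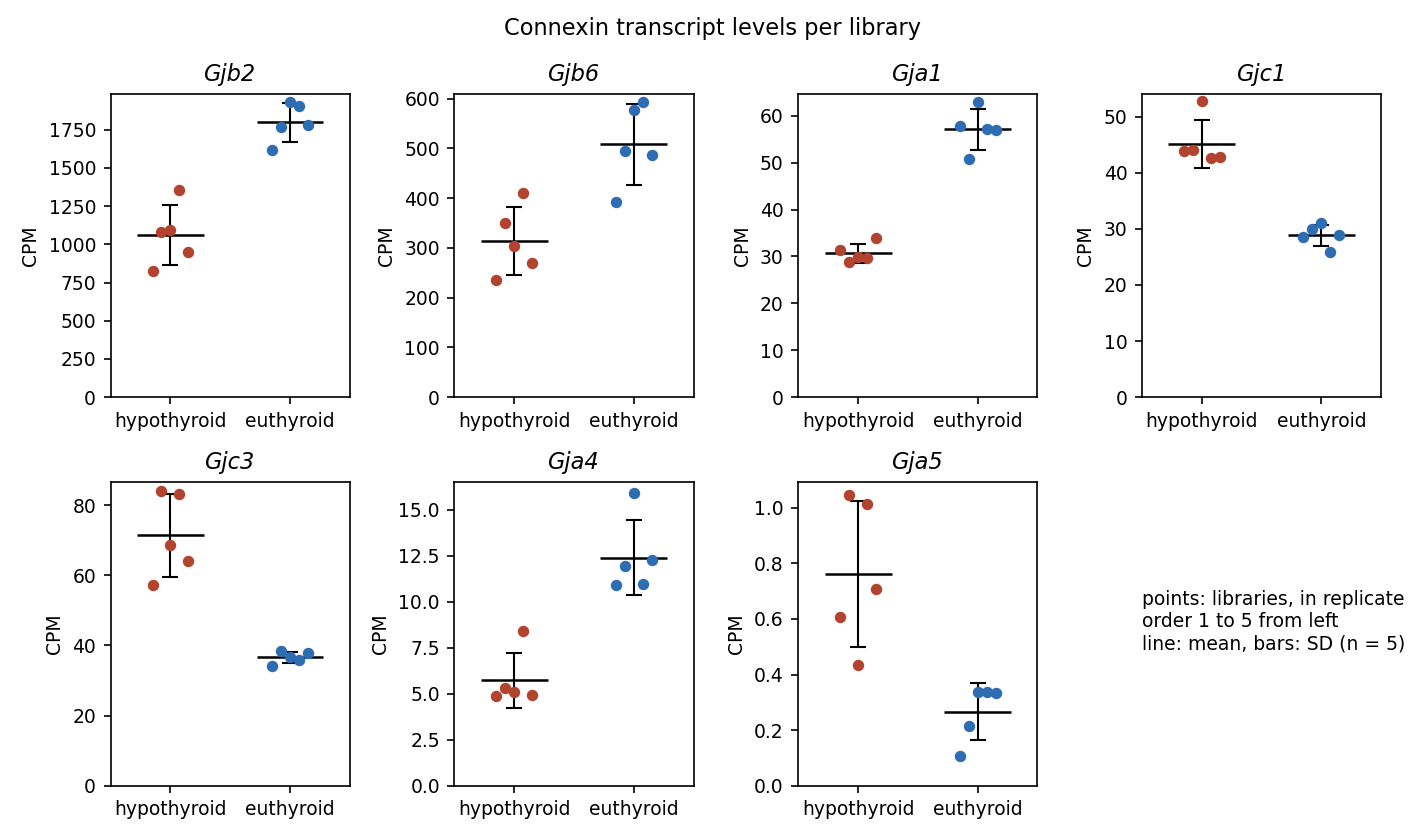
CPM of the 7 connexins in each library (vertical axis from 0, a separate scale per gene), hypothyroid on the left and euthyroid on the right, with mean and SD (n = 5 each). Gjb2, Gja1 and Gja4 lie wholly lower and Gjc1, Gjc3 and Gja5 wholly higher in the hypothyroid libraries, and Gjb6 is the gene whose groups overlap.

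Gjb2 was the most abundant connexin in both groups. It had 823, 1083, 1095, 1354 and 949.9 CPM in hypothyroid libraries 1 to 5, against 1615, 1766, 1931, 1906 and 1779.8 CPM in euthyroid libraries 1 to 5. Every hypothyroid library lay under every euthyroid one, and hypothyroid library 4 came closest to the euthyroid range. The mean was 1061 ± 198 CPM in hypothyroid and 1799 ± 127 CPM in euthyroid libraries (SD, n = 5 each), 1.70-fold lower (log2 fold change -0.76, SE 0.11, edgeR adjusted p = 3.83e-05). On the TPM scale it ranked 110th of 18725 genes in hypothyroid and 41st in euthyroid tissue.

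Gjb6, which pairs with Gjb2 in mixed channels of the cochlea, fell by a similar amount. Its values were 236, 351, 304, 409.5 and 269 CPM in hypothyroid libraries 1 to 5, against 392, 494, 578, 593 and 486 CPM in euthyroid libraries 1 to 5. Hypothyroid library 4 lay above euthyroid library 1, so the groups overlapped. The mean was 314 ± 68.5 CPM in hypothyroid and 508 ± 80.9 CPM in euthyroid libraries (SD, n = 5 each), 1.62-fold lower (log2 fold change -0.70, SE 0.16, edgeR adjusted p = 0.00322). Among the 6 tested members it had the largest adjusted p.

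Gjb2 and Gjb6 lie side by side on the minus strand of chromosome 14 of GRCm38. Gjb2 spans 57098600 to 57104702 and Gjb6 spans 57123303 to 57133611, 18.6 kb apart in GENCODE M21, and both are protein-coding. For these neighbours, the 250 bases before each annotated start (RefSeq, GRCm38.p6, minus strand, written 5′ to 3′ in the sense of the gene) are shown. They lie at chr14:57104703-57104952 for Gjb2 and chr14:57133612-57133861 for Gjb6. Capitals mark GGGCGG, the GC box, and AGGTCA, the half-site that nuclear receptors such as the thyroid hormone receptor can bind, each on either strand.
Gjb2: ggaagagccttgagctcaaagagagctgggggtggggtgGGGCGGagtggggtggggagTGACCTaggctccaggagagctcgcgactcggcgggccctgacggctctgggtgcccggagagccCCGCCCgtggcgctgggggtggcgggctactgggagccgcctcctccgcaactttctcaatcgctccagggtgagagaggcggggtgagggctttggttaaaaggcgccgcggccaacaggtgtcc
Gjb6: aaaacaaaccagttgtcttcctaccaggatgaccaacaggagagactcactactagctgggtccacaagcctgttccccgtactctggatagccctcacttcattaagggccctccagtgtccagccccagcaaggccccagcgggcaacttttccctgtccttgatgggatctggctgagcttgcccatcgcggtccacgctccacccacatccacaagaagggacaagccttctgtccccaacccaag
The Gjb2 window holds GGGCGG with its first base 211 bases before the start, the same motif on the opposite strand 126 bases before it, and AGGTCA on the opposite strand 191 bases before it. The Gjb6 window holds neither motif. Of 32851 such windows in the table, 32.7% hold GGGCGG and 14.0% hold AGGTCA, and the motifs do not overlap each other in the Gjb2 window. The GC content was 69.2% for Gjb2 and 56.8% for Gjb6, against a median of 52.4%. These matches are descriptions of sequence and were not tied to binding.

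The ratio of Gjb6 to Gjb2 within a library does not depend on how libraries are scaled. It was 0.357, 0.399, 0.343, 0.374 and 0.349 on the TPM scale in hypothyroid libraries 1 to 5, against 0.299, 0.347, 0.370, 0.385 and 0.338 in euthyroid libraries 1 to 5. The groups overlapped, and the mean log2 ratio was -1.46 ± 0.088 in hypothyroid and -1.53 ± 0.141 in euthyroid libraries (SD, n = 5 each). The difference of 0.07 had an exact two-sided permutation p of 0.397 (adjusted p = 0.397 over 3 ratios), which does not show that the ratios are equal.

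**Figure D2:**
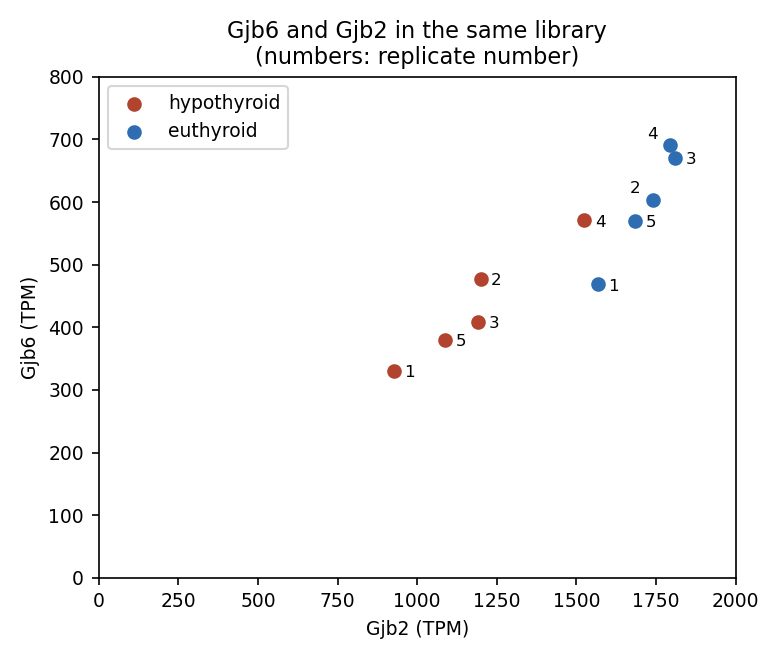
TPM of Gjb6 (vertical) against TPM of Gjb2 (horizontal) in each library, hypothyroid in red and euthyroid in blue, with the replicate number beside each point and both axes from 0. The libraries run along a common slope, with library 1 the lowest of its group for both genes and hypothyroid library 4, at 1525 TPM of Gjb2 and 571 TPM of Gjb6, nearest to the euthyroid points.

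Within the hypothyroid group the same library led for several members. Library 4 was the highest for Gjb2, Gjb6 and Gja4, and library 1 was the lowest for Gjb2, Gjb6, Gja4 and Gjc3. The summed CPM of 9 strial intermediate cell and melanocyte markers was 1043, 1388, 1173, 1786 and 968 in hypothyroid libraries 1 to 5, so library 4 led there as well. Over the groups this sum ran from 968 to 1786 CPM in hypothyroid and from 715 to 917 CPM in euthyroid libraries, with 6 markers higher and 3 lower. The pigment cell gene Gpr143 rose by 1.66 on the log2 scale, while the potassium channel gene Kcnj10 fell by 2.48 and the receptor gene Kit by 1.00. The summed bone markers had the same leading library, at 978 CPM in hypothyroid library 4 and 449.6 to 681 CPM in the others. Most of that sum was Spp1, an osteopontin gene also expressed outside bone, which averaged 479 ± 231 CPM in hypothyroid and 288 ± 54.9 CPM in euthyroid libraries (SD, n = 5 each) and did not pass (log2 fold change 0.73, edgeR adjusted p = 0.0717). The summed outer sulcus and root cell markers were lowest in library 4, at 3434 CPM, where the other hypothyroid libraries had 3697 to 4161 CPM. Most of that sum was Epyc and Sparcl1. No marker of these lists was at 0 in all libraries. Their part in the connexin values was not tested.

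Markers of cochlear cell types, whether or not these carry Gjb2 and Gjb6, differed in direction. Of 10 outer sulcus and root cell markers 6 fell, 3 rose and 1 did not pass. Their sum was 3434 to 4161 CPM in hypothyroid and 8056 to 8801 CPM in euthyroid libraries. Most of it was Epyc and Sparcl1, at means of 1735 and 1408 CPM in hypothyroid and 3978 and 3512 CPM in euthyroid libraries. Kcnj16, a potassium channel gene of root cells, fell by 4.61 on the log2 scale, and Sparcl1 by 1.32, whereas Lgr6 rose by 2.82. Of 11 spiral ligament fibrocyte markers 7 fell, 3 rose and 1 did not pass, with sums of 13287 to 15892 CPM in hypothyroid and 23752 to 27611 CPM in euthyroid libraries. Atp1b1, which encodes a subunit of the sodium pump, had a log2 fold change of -2.48, and Aqp1, a water channel gene, 1.42. Of 7 tested general epithelial markers 4 rose, 2 fell and 1 did not pass, with sums of 762 to 899.7 CPM in hypothyroid and 757 to 819 CPM in euthyroid libraries. The claudin gene Cldn6 and the keratin gene Krt18 were higher (log2 fold changes 4.23 and 1.02) and Cldn9 was lower (-1.36). Of 7 strial marginal cell markers, 1 rose and 2 fell; of 7 tested hair cell markers, 1 rose and 5 fell; of 6 tested supporting cell markers, 1 rose and 5 fell; and all 8 macrophage markers rose, with sums of 378 to 506 CPM in hypothyroid and 243 to 266 CPM in euthyroid libraries. The part of these cell types in the fall of Gjb2 and Gjb6 was not tested.

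Gja1 encodes connexin 43, the connexin of bone-forming cells, fibroblasts and heart muscle. It had 31.4, 28.8, 29.8, 29.6 and 33.9 CPM in hypothyroid libraries 1 to 5, against 57.8, 50.7, 63.0, 57.2 and 57.0 CPM in euthyroid libraries 1 to 5. The groups were far apart and each was tight. The mean was 30.7 ± 2.01 CPM in hypothyroid and 57.2 ± 4.36 CPM in euthyroid libraries (SD, n = 5 each), 1.86-fold lower (log2 fold change -0.90, SE 0.063, edgeR adjusted p = 5.99e-09). Gja1 spans 56377330 to 56402513 on the plus strand of chromosome 10. Bone markers were mostly lower in hypothyroid tissue too: of 12, 10 fell, 0 rose and 2 did not pass. Their sum was 449.6 to 978 CPM in hypothyroid and 1741 to 2631 CPM in euthyroid libraries, Spp1 included. Within the hypothyroid group the orders differed. Gja1 was highest in library 5, where the bone sum was 469 CPM, and the bone sum was highest in library 4. Spp1, which did not pass, made up most of the hypothyroid bone sum. Its order over libraries therefore need not be that of the other bone markers. Sost, Dmp1 and Mepe, genes of bone-embedded osteocytes, had log2 fold changes of -7.17, -4.17 and -7.09. Of 8 tested chondrocyte markers 5 fell, 2 rose and 1 did not pass, Col2a1, Cnmd and Chad at -1.37, -1.08 and -2.56, and their sum was 13480.4 to 14425 CPM in hypothyroid and 33081 to 38285 CPM in euthyroid libraries. Their part in the change of Gja1 was not tested.

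Gjc1 encodes connexin 45, found in smooth muscle, early heart and other mesenchymal cells, and it rose. Its values were 43.8, 44.0, 52.8, 42.6 and 42.8 CPM in hypothyroid libraries 1 to 5, against 28.6, 30.0, 31.0, 25.9 and 28.9 CPM in euthyroid libraries 1 to 5. All hypothyroid libraries lay above all euthyroid ones, and hypothyroid library 3 stood above the other 4. The mean was 45.2 ± 4.29 CPM in hypothyroid and 28.9 ± 1.90 CPM in euthyroid libraries (SD, n = 5 each), 1.57-fold higher (log2 fold change 0.65, SE 0.069, edgeR adjusted p = 6.71e-07). Of 8 mural cell markers 5 fell, 2 did not pass and 1 rose, the smooth muscle gene Myh11. It averaged 6.20 ± 1.38 CPM in hypothyroid and 2.10 ± 0.523 CPM in euthyroid libraries (SD, n = 5 each, log2 fold change 1.56, edgeR adjusted p = 2.44e-06). The smooth muscle gene Acta2 did not pass, at 2.47 ± 0.297 CPM in hypothyroid and 2.79 ± 0.554 CPM in euthyroid libraries (SD, n = 5 each, log2 fold change -0.18, edgeR adjusted p = 0.348). The part of mural cells in the rise of Gjc1 was not tested. Gjc1 spans 102799579 to 102819700 on the minus strand of chromosome 11.

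Gjc1 and Gja1 changed places. Their TPM ratio, Gjc1 to Gja1, was 2.0 to 2.82 in hypothyroid libraries and 0.712 to 0.944 in euthyroid ones. The mean log2 ratio was 1.23 ± 0.182 in hypothyroid and -0.32 ± 0.147 in euthyroid libraries (SD, n = 5 each). The difference was 1.55. Since neither gene overlapped between the groups and they moved in opposite directions, the separation of their ratio follows from those values and adds no evidence.

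Gja4 and Gja5 are connexins of blood vessel walls. Gja4, which encodes connexin 37 of endothelium, had 4.86, 5.33, 5.06, 8.40 and 4.95 CPM in hypothyroid libraries 1 to 5, against 10.9, 11.96, 15.9, 10.9 and 12.3 CPM in euthyroid libraries 1 to 5. The groups did not overlap, with hypothyroid library 4 and euthyroid library 3 each above the rest of their group. The mean was 5.72 ± 1.51 CPM in hypothyroid and 12.4 ± 2.06 CPM in euthyroid libraries (SD, n = 5 each), 2.16-fold lower (log2 fold change -1.11, SE 0.16, edgeR adjusted p = 1.61e-05). It was -1.29 without hypothyroid library 4. This was the largest change among the tested members with TMM scaling, but with library sizes alone Gjc3 changed more (1.23, against -0.85 for Gja4), as it did with upper quartile factors and on FPKM and TPM. Gja4 spans 127311421 to 127314039 on the minus strand of chromosome 4.

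Gja5, which encodes connexin 40 of arterial endothelium and atrial muscle, was near the limit of detection. It had 13.3, 22.0, 8.99, 22.0 and 15.2 estimated counts in hypothyroid libraries 1 to 5, against 2.34, 3.88, 6.23, 5.87 and 6.00 in euthyroid libraries 1 to 5. The groups did not overlap, at 81.5 counts over the hypothyroid and 24.3 counts over the euthyroid libraries. It was left out of the main test by the count filter. With no filter its log2 fold change was 1.50 (SE 0.37, edgeR adjusted p = 0.00181). Gja5 spans 96904693 to 97077416 on the plus strand of chromosome 3, and its exons overlap those of Gpr89 on the other strand. Of 5742 windows of 50 bases in its transcripts, 876 (15.3%) also occur in transcripts of Gpr89 or Zfp697, so the assignment of some reads is uncertain. Gpr89 averaged 18.0 ± 1.10 TPM in hypothyroid and 17.95 ± 1.39 TPM in euthyroid libraries (SD, n = 5 each), with overlapping ranges. Its log2 fold change after TMM scaling was -0.17 (edgeR adjusted p = 0.0316), a direction that the TPM means do not share.

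The ratio of Gja5 to Gja4 shifted accordingly. It was 0.0455 to 0.105 on the TPM scale in hypothyroid libraries and 0.00591 to 0.0162 in euthyroid ones. The mean log2 ratio was -3.84 ± 0.437 in hypothyroid and -6.54 ± 0.585 in euthyroid libraries (SD, n = 5 each). The difference was 2.70, and with a pseudocount of 0.1 TPM on both genes it was 2.25. Here too the separation follows from the opposite, non-overlapping values of both genes. The low counts of Gja5 in euthyroid tissue limit how well its size is known.

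Vascular markers were mostly lower. Of 10 endothelial markers, 8 fell, 0 rose and the other 2 missed the threshold, for a median log2 fold change of -0.44, with sums of 667 to 784 CPM in hypothyroid and 838 to 1067 CPM in euthyroid libraries. Tie1, Emcn and Tek, all endothelial surface genes, had log2 fold changes of -0.81, -0.47 and -0.55. With library sizes alone 5 of the 10 were lower and 0 higher. Of 8 arterial markers, 7 fell, 0 rose and 1 missed it (median -0.52; 5 lower and 1 higher with library sizes alone), with sums of 479 to 560.4 CPM in hypothyroid and 659 to 720.4 CPM in euthyroid libraries. The Notch target Hey1 fell by 2.04, the Notch ligand gene Dll4 by 0.86 and Nrp1 by 0.42 on the log2 scale. Gja5 was higher in the same libraries in which these were lower. Of 8 mural cell markers 5 fell, 1 rose (Myh11) and 2 did not pass, with Rgs5, Pdgfrb and Kcnj8 at -1.23, -0.81 and -1.09. The mural sums were 715 to 789 CPM in hypothyroid and 1374 to 1719 CPM in euthyroid libraries. Most of them was Rgs5, at means of 445 CPM in hypothyroid and 1044 CPM in euthyroid libraries. The differences between these lists and Gja4 or Gja5 were not tested.

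**Figure D3:**
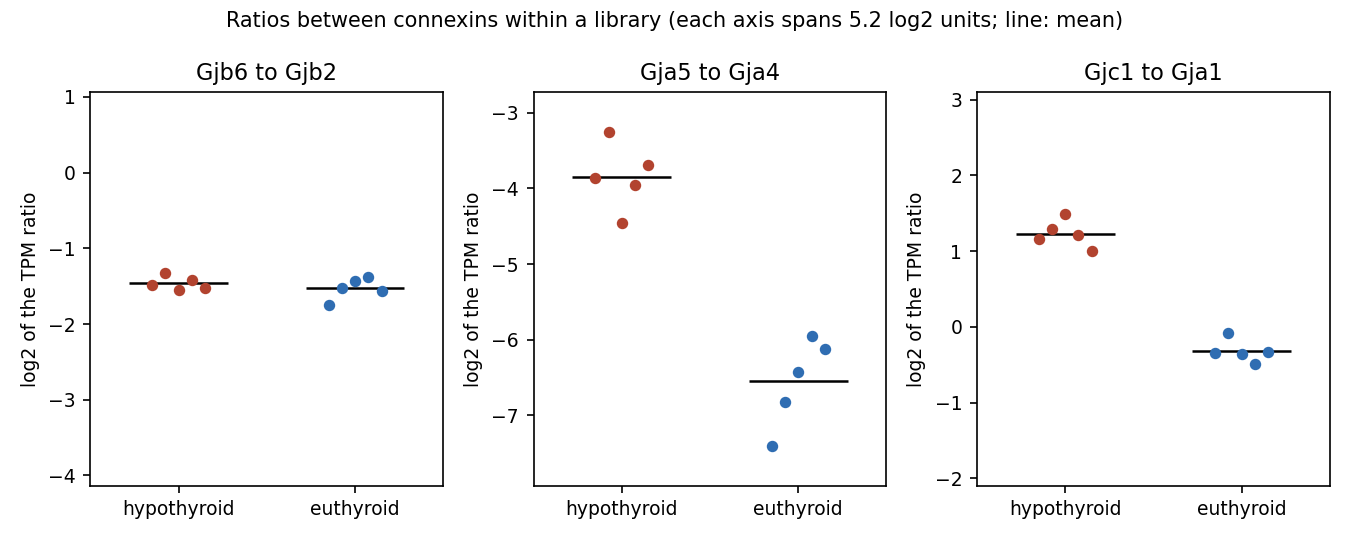
Log2 of the TPM ratio of Gjb6 to Gjb2, Gja5 to Gja4 and Gjc1 to Gja1 in each library, hypothyroid left and euthyroid right, with the group mean as a line and the same span of log2 units on each axis. The Gjb6 to Gjb2 ratio overlaps between the groups (difference 0.07), while the other ratios are higher in every hypothyroid library (differences 2.70 and 1.55).

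Gjc3 encodes connexin 29, known from myelinating Schwann cells and oligodendrocytes, and it rose. It had 57.1, 84.1, 68.5, 83.2 and 64.1 CPM in hypothyroid libraries 1 to 5, against 34.2, 38.4, 36.6, 35.9 and 37.8 CPM in euthyroid libraries 1 to 5. Every hypothyroid library was higher than every euthyroid one, and the hypothyroid libraries were more spread. The mean was 71.4 ± 11.9 CPM in hypothyroid and 36.6 ± 1.63 CPM in euthyroid libraries (SD, n = 5 each), 1.95-fold higher (log2 fold change 0.97, SE 0.097, edgeR adjusted p = 8.56e-07). Gjc3 spans 137953461 to 137963098 on the minus strand of chromosome 5. Of the 4306 windows of 50 bases in its transcripts, 89 (2.07%) also occur in transcripts of other genes.

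Schwann cell markers were split in direction beside Gjc3, and the split depended on scaling. Of 10 such markers, 3 rose, 3 fell and 4 missed the threshold, with a median of -0.06; with library sizes alone 4 were higher and 1 lower. Their sum was 285 to 353 CPM in hypothyroid and 324 to 431 CPM in euthyroid libraries. Cldn19, a tight junction gene of these cells, rose by 2.30 on the log2 scale. Pmp22, a myelin gene, fell by 0.63. Sox10, the transcription factor gene of glia and melanocytes, averaged 110.9 CPM in hypothyroid and 110.3 CPM in euthyroid libraries (log2 fold change 0.01, edgeR adjusted p = 0.930). Within the hypothyroid group Gjc3 was highest in libraries 2 and 4. The same libraries had the highest Schwann cell sums, at 353 and 324 CPM against 285 to 312 CPM in the other hypothyroid libraries. Those libraries also had the highest sums of strial intermediate cell, strial marginal cell, epithelial and bone markers, the last mostly Spp1. The part of these cell types in the rise of Gjc3 was not tested.

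The order of connexin levels differed between the groups below the leading pair. Per length, hypothyroid tissue had Gjb2 at 1186 TPM, Gjb6 at 433, Gjc1 at 62.2, Gjc3 at 53.1, Gja1 at 26.5, Gja4 at 9.21 and Gja5 at 0.66 TPM. Euthyroid tissue had Gjb2 at 1719 TPM, Gjb6 at 601, Gja1 at 42.1, Gjc1 at 33.7, Gjc3 at 23.3, Gja4 at 17.0 and Gja5 at 0.194 TPM. Gja1 was at position 5 in hypothyroid and position 3 in euthyroid tissue. In hypothyroid tissue the TPM ranges of Gjc1 and Gjc3 overlapped, and no other neighbours in either order did. Over 20 connexin genes in the table, the summed level was 1777 ± 319 TPM in hypothyroid and 2441 ± 187 TPM in euthyroid libraries (SD, n = 5 each). Gjb2 and Gjb6 together made up 91.0% ± 1.06 of it in hypothyroid and 95.0% ± 0.443 in euthyroid libraries. Gjc1 and Gjc3 took 3.59% and 3.0% in hypothyroid tissue, against 1.39% and 0.957% in euthyroid tissue.

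The rest of the family was scarce. Of 13 further connexin genes, 2 passed the count filter, and neither passed the test. Gja3, a lens connexin gene, averaged 0.745 ± 0.174 CPM in hypothyroid and 0.574 ± 0.159 CPM in euthyroid libraries (SD, n = 5 each, log2 fold change 0.37, edgeR adjusted p = 0.215). The other 11, among them Gja6, Gja10, Gjb1, Gjb5, Gjd2, Gjd3, Gjd4 and Gje1, had at most 11.0 estimated counts in any library.

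Pannexins, which form single-membrane channels of similar build, all passed the threshold, where 71.8% of all tested genes passed in either direction. Panx1, the widespread ATP release channel gene, had 10.6, 9.08, 12.3, 12.5 and 11.3 CPM in hypothyroid libraries 1 to 5, against 6.32, 4.69, 5.36, 4.62 and 5.88 CPM in euthyroid libraries 1 to 5. It was 2.07-fold higher, without overlap (log2 fold change 1.05, SE 0.12, edgeR adjusted p = 1.27e-06). Panx2 averaged 4.74 ± 0.314 CPM in hypothyroid and 1.97 ± 0.378 CPM in euthyroid libraries (SD, n = 5 each), 2.40-fold higher (edgeR adjusted p = 1.60e-06). Panx3, the pannexin gene of osteoblasts and cartilage, had 4.82, 2.0, 2.46, 2.03 and 2.69 CPM in hypothyroid libraries 1 to 5, against 27.4, 28.1, 25.6, 29.2 and 40.3 CPM in euthyroid libraries 1 to 5. It was 10.7-fold lower (log2 fold change -3.43, SE 0.22, edgeR adjusted p = 5.41e-08), beside the bone and cartilage markers given with Gja1, and their part in it was not tested.

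**Figure D4:**
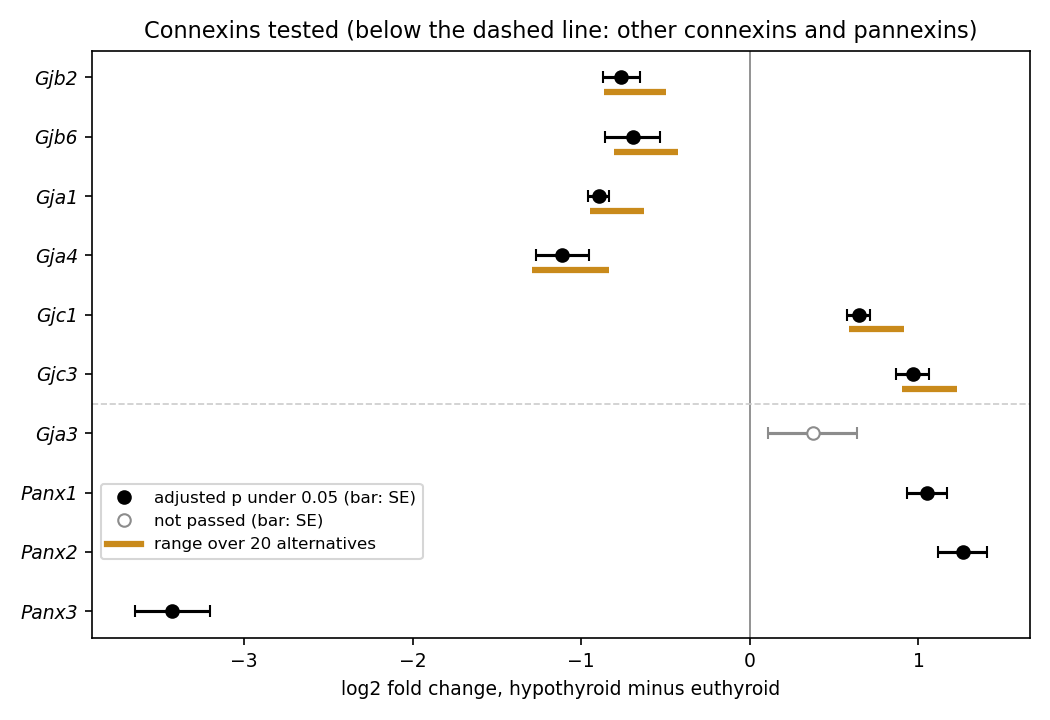
Log2 fold change, hypothyroid minus euthyroid, of the 6 tested members (above the dashed line) and of the other tested connexins and pannexins (below it, those reported here), with the SE as a bar. The wide bars under the members span the values over 20 alternatives each, none of which crosses 0. Panx3 (-3.43) lies farthest from 0, and Gja3 did not pass.

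Genes whose products hold, move or modify connexins changed in both directions. Of 20 such partners, 7 rose, 8 fell and the other 5 missed the threshold, with a median of -0.05. Of all tested genes 71.8% passed, 37.7% higher and 34.1% lower, so these counts are near those of the whole table. With library sizes alone 11 were higher and 5 lower, so the balance depended on scaling. Tjp1, the scaffold ZO-1 that binds connexin 43, averaged 400.2 ± 43.8 CPM in hypothyroid and 295.5 ± 23.0 CPM in euthyroid libraries (SD, n = 5 each, log2 fold change 0.44, edgeR adjusted p = 9.01e-05). The actin-binding drebrin gene Dbn1 rose by 1.12, the secreted connexin 43 partner gene Ccn3 by 1.50, Ubqln4, whose product takes connexin 43 to degradation, by 0.64, and the ubiquitin ligase gene Nedd4 by 0.23 on the log2 scale. The caveolin genes Cav1 and Cav2 fell by 1.41 and 1.27, the kinase gene Prkca by 1.35 and Tmem65, needed for connexin 43 placement in heart muscle, by 1.14. Cnst, which encodes consortin, a connexin trafficking protein, had a log2 fold change of -0.33 (edgeR adjusted p = 9.27e-06) and was not called with library sizes alone.

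Likeness of pattern was measured as the root mean square difference between log2 CPM profiles over the 10 libraries, each centred on its mean, among 11983 genes averaging 5 CPM or more. The closest genes to Gjb6 were Nceh1 (0.103), Gjb2 (0.110) and Elovl7 (0.111). The closest to Gjb2 were Ss18l2 (0.0631), St6galnac2 (0.0903) and Hsdl2 (0.0911), all on other chromosomes. Gjb6 came at rank 16 in closeness to Gjb2, with a difference of 0.110. Gja1 was most like Antxr2, Slc38a3 and Me2 (0.0540 to 0.0604), and Gja4 most like Cdh19 (0.133) and Slc12a2 (0.145). Gjc1 was most like Fancl, Prrx1 and Hdgfl3 (0.0519 to 0.0639), and Gjc3 most like Cldn4, Maob and Csgalnact1 (0.104 to 0.108). Since most genes differed between the groups, a small difference partly reflects a similar fold change.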

How the data were processed

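Libraries of polyadenylated RNA, 5 hypothyroid and 5 euthyroid, were sequenced as single-end 50-base reads, per the labels' protocols, and whether strand was kept is not stated. The submitters' processing notes list RSEM 1.2.12, Bowtie2 2.2.5, HISAT2 2.0.4 and the build GRCm38.p6, with no role or order. The authors deposited expected counts per gene, estimated per library, with TPM and FPKM values, per the file headers. The authors' scaled counts (10 columns) and group means were not used.

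Expected counts were rounded, filtered with filterByExpr (minimum count 10), scaled with TMM factors (mean 1.10 in hypothyroid and 0.912 in euthyroid libraries) and tested with the edgeR quasi-likelihood test (edgeR 4.0.16, robust, group as the only term, two-sided). The SE was derived from the log2 fold change and its F statistic, as |log2 fold change|/√F. Of 3 TPM ratios, tested by exact permutation (scipy 1.17.1), the p is given for the one that its genes' own ranges did not fix. The edgeR step was tested on simulated data with few changed genes, balanced in direction. Most genes were called in the real data, so that test does not check the scaling or calls here. Alternatives used limma 3.58.1 and DESeq2 1.42.0, with R 4.3.3 and Python 3.11.15. The connexins, the marker and partner lists and the rule for named genes were chosen with earlier results of these data known. The rule took all connexins, the tested pannexins and up to 5 partners in each direction with Tjp1. It also took the 3 most alike genes and the 3 markers of a list with the smallest adjusted p. Cnst, Sox10, Gpr89, Spp1, Myh11, Acta2 and Epyc were named after their values were seen. Some genes that the rule selects are not reported here. Counts of same-group libraries were compared by chi-square (20 pairs), and the mean per gene, 5.41 to 15.8, showed no duplicate library. Mother and litter were not known, so a litter effect cannot be told apart from treatment. Positions are GENCODE M21 (GRCm38), and promoters came from RefSeq, where 6 of the 7 connexins matched.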

Additional observations from a re-analysis of the deposited data

Results flagged for a closer look

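In 3 of 20 groups of 5 libraries examined (7 connexins and 3 ratios in each condition), 1 library stood apart from the others by Dixon's criterion, where chance gives about 1 in 20. Gja4 had 8.40 CPM in hypothyroid library 4, where the next highest had 5.33 CPM. Without that library its log2 fold change was -1.29 in place of -1.11. Gja4 also had 15.9 CPM in euthyroid library 3, where the next highest had 12.3 CPM, and without it the log2 fold change was -1.02. Gjc1 had 52.8 CPM in hypothyroid library 3, where the next highest had 44.0 CPM, and without it the log2 fold change was 0.59 in place of 0.65. All calls held in these cases.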

How the results depend on the processing

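Over 20 alternatives each, Gjb2, Gjb6, Gja1, Gja4, Gjc1 and Gjc3 kept their direction and passed the threshold. Log2 fold changes ran from -0.86 to -0.50 for Gjb2, -0.81 to -0.43 for Gjb6 (adjusted p up to 0.0314, with library sizes alone), -0.95 to -0.63 for Gja1, -1.29 to -0.84 for Gja4, 0.59 to 0.92 for Gjc1 and 0.90 to 1.23 for Gjc3. The median of all tested genes was 0.04 with TMM, 0.30 with library sizes alone, 0.15 with upper quartile factors, 0.27 on FPKM and 0.25 on TPM, so rises grow and falls shrink under those scalings. Genes called over the table ran from 9698 to 11977. Gja5 was called higher in both fits with no filter (adjusted p 0.00181 in edgeR and 5.81e-04 on TPM); in 6 leave-one-out fits it passed the filter through its hypothyroid counts, so those calls add no support. The higher count of other connexins and pannexins was 4 with no filter, in edgeR and on TPM, through Gja6 and Gjb5 at few counts. For partners the higher count was 11 with library sizes alone and on FPKM, and the lower count was 5 with library sizes alone, on FPKM and in the 3 fits on TPM. With a replicate block (replicate number as a term) all 6 members kept their calls, and the SE of Gjb6 was 0.068 in place of 0.163. Over all tested genes, deviations of same-numbered libraries had correlations of -0.0774 to 0.108, and 3 of 10 libraries correlated best with their own number. The labels do not say that the numbers pair the libraries. Correlations over all genes cannot decide it for single genes. The ratio differences of 2.70 (Gja5 to Gja4) and 1.55 (Gjc1 to Gja1) came from groups that did not overlap. An exact sign-flip permutation test over same-numbered libraries therefore gave p = 0.0625 for each, the smallest it can give. That outcome was fixed by the non-overlapping values and adds no evidence. Without each library in turn the Gjb6 to Gjb2 difference was 0.02 to 0.11. Depth limits Gja5 and the 11 untested connexins.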
